A study of Mus musculus with 8 samples.

Results

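Guanylate-binding proteins (GBPs) and immunity-related GTPases (IRGs) are interferon-inducible GTPases, described here by the 10 genes Gbp2, Gbp3, Gbp5, Gbp6, Gbp7, Igtp, Irgm1, Irgm2, Iigp1 and Tgtp2. The members were taken by gene symbol from 55276 symbols in each deposited table, and all 10 were found and tested at both days. The cells were GFP+ fibro-adipogenic progenitors (FAPs), mesenchymal cells resident in skeletal muscle, which were isolated from tibialis anterior muscle by flow sorting at 3 and 7 days post injury (dpi). Injury was by freeze-pierce, in C57Bl6 mice aged 4 to 6 months that received tamoxifen on the day of injury and on the days after it. Controls were Osr1 flox/+ CAGG Cre+ and therefore heterozygous, and Osr1cKO mice were Osr1 flox/flox CAGG Cre+. Both genotypes carried the inducible Cre, which the CAGG promoter drives in all tissues, and in both GFP was read from a recombined Osr1 allele. There were 2 libraries per genotype and day, 8 in all, with 1 mouse in each library of 3 dpi and a pool of 4 mice in each of 7 dpi. Pooling, and possibly the sequencer, thus changed with the day and cannot be told apart from it.

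Interferons bind receptors that signal through Janus kinases to STAT transcription factors, which act at ISRE and GAS motifs in promoters. GBPs are large GTPases that assemble on the vacuoles of intracellular parasites and on bacteria and promote inflammasome activation. IRGs are smaller GTPases that attack the parasite's vacuole. Among them Iigp1 and Tgtp2 are effectors, whereas Irgm1, Irgm2 and Igtp are regulators that keep the effectors inactive on the cell's own membranes. Fibroblasts and other mesenchymal cells express both families once they receive interferon.

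Upstream sequence was examined first. Both families are interferon-inducible, so ISRE and GAS matches in the members are a description and not independent support. RefSeq promoters (GRCm38.p6) held 8 of the 10 members, all but Gbp6 and Iigp1. The 250 bases before each start were searched on both strands for the core of the interferon-stimulated response element, which is GAAA, any 2 bases and GAAA, and for the gamma-activated sequence, TTCNNNGAA, which reads the same on both strands. The ISRE core was present in 8 of these 8 members and at 8 of their 9 annotated starts, against 2.98% of 32851 promoters. GAS was present in 5 of the members (Gbp5, Gbp7, Igtp, Irgm2 and Tgtp2) and at 5 of the 9 starts, against 7.02% of promoters. Those 5 members held both motifs, as did 0.332% of all promoters. A match describes the letters and not a bound site. Gbp3 has a pair of annotated starts, and no motif was found at the other one. The following stretches are shown because they hold both motifs and lie outside annotated exons. They are written 5′ to 3′ along the gene, with matched motifs in capitals.
Gbp7, chr3:142530210-142530312, plus strand: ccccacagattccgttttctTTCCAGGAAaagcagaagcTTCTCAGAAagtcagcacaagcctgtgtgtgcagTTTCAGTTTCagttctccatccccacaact
Igtp, chr11:58199491-58199551, plus strand: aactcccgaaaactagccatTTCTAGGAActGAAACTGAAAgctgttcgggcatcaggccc
Irgm2, chr11:58214882-58214942, plus strand: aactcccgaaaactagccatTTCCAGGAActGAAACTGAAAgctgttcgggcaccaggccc
Tgtp2, chr11:49064253-49064313, minus strand: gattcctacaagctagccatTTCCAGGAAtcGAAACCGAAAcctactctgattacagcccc

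In Igtp, Irgm2 and Tgtp2 the GAS was followed by the ISRE core after 2 bases. The stretches of Igtp and Irgm2 had 59 of 61 bases in common, and those of Igtp and Tgtp2 had 42 of 61. In Gbp7 a pair of GAS matches preceded an ISRE core on the opposite strand. The stretch of Irgm2 lies in an intron of a longer annotated Irgm2 transcript, and that of Tgtp2 in an intron of Olfr56, which runs on the opposite strand.

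**Figure D1:**
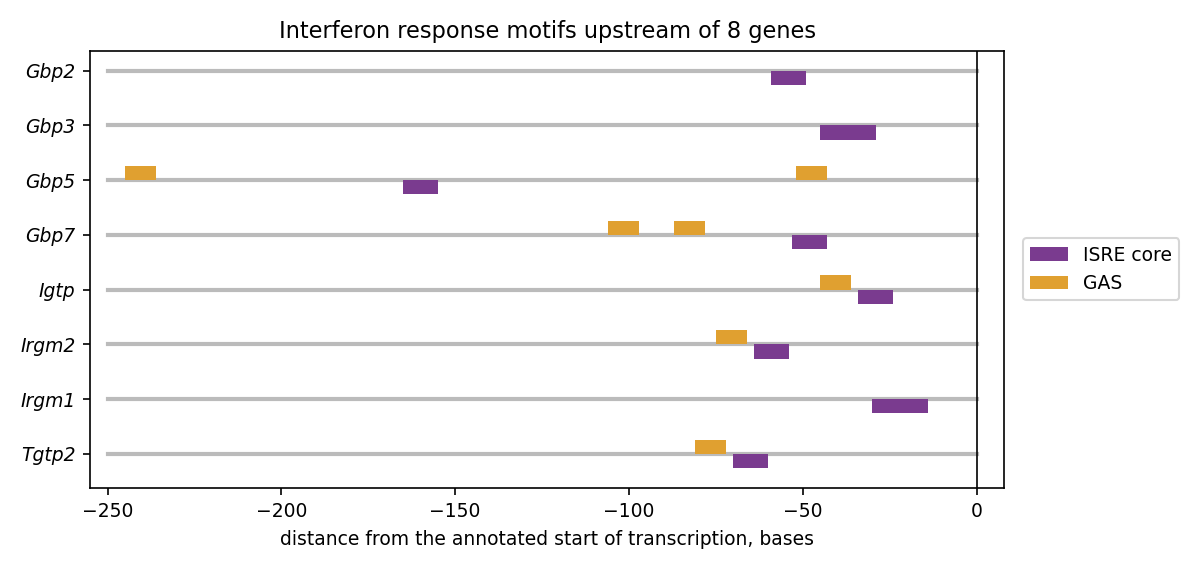
Positions of the ISRE core (purple) and GAS (orange) in the 250 bases upstream of 8 members, with distance in bases from the annotated start on the horizontal axis. All 8 hold an ISRE core, and in Igtp, Irgm2 and Tgtp2 a GAS lies 2 bases before it.

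The members lie in a few clusters of the genome (mm10 coordinates, GENCODE). Gbp5 (chr3:142493978-142522344), Gbp7 (chr3:142530342-142550149), Gbp3 (chr3:142560026-142573209) and Gbp2 (chr3:142620602-142638008) follow one another on the plus strand, whereas Gbp6 lies on chromosome 5 (chr5:105270702-105293698, minus strand). Irgm1 (chr11:48861968-48871683, minus strand) and Tgtp2 (chr11:49057194-49064206, minus strand) lie close together, and Igtp (chr11:58199556-58207591) and Irgm2 (chr11:58199618-58222782) overlap in exons on the plus strand. Iigp1 lies on chromosome 18. Near-identical copies and overlapping genes limit some values. Of all words of 75 bases in the transcripts, 81.4% of those of Tgtp2 also occur in Tgtp1. Of those of Gbp6, 67.3% occur in other genes, Gbp10 among them. The largest share, 61.7%, lies in Gm43302, which overlaps Gbp6 in exons on the same strand. Levels of Tgtp2 and Gbp6 are therefore uncertain as to which gene they come from. The share was 11.3% for Gbp7, mostly with Gm43802, which overlaps it in exons on the same strand. It was 7.80% for Igtp, 4.78% for Irgm2, 2.06% for Gbp3 and under 1% for the other members.

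The files gave TPM, a length-normalized share of all transcripts, and depth recovered from the low values lay between 36516528 and 51096358 fragments per library. FAP markers were abundant throughout, with a summed level of 26700 to 54530 TPM over 8 genes. Control library 1 at 3 dpi stood at the low end, with 12400 TPM of Col1a1 against 20480 to 28080 in the others. Macrophage markers summed to 19.0 to 20.6 TPM in control and 11.1 to 20.2 in Osr1cKO at 3 dpi. At 7 dpi the sums were 43.0 to 46.7 TPM in control and 47.8 to 65.4 in Osr1cKO. Ptprc was at or below 0.216 TPM in every library, whereas Lyz2 stood at 19.5 to 36.1 and Cd68 at 12.5 to 17.4 at 7 dpi. T and NK cell markers summed to less than 6 TPM in each library, Cd8a was at 0 in all 8, and Cd3e was at 0 in the 4 libraries of 3 dpi. Endothelial markers summed to 44.5 and 21.1 TPM in control, against 17.2 and 18.0 in Osr1cKO at 3 dpi, with 0 of 5 called. Myofiber markers summed to 52.8 and 51.6 TPM in control, against 32.6 and 35.3 in Osr1cKO at 7 dpi, with 3 of 4 lower at an unadjusted p under 0.05. The endothelial sum at 3 dpi moved in the direction of the members, as did the T and NK cell sum and the myofiber sum at 7 dpi. The part of these cells in the results was not tested. Kdr made up 16.8 TPM of the endothelial sum in control library 1 of 3 dpi, against 2.26 in control library 2. At 7 dpi the endothelial sum was 46.2 and 61.6 TPM in control, against 47.9 and 71.1 in Osr1cKO. Neutrophil, muscle stem cell and erythroid sums overlapped between the genotypes at 3 and 7 dpi. Osr1 was at 105 and 91.0 TPM in control and 70.7 and 71.9 in Osr1cKO at 3 dpi, and at 67.6 and 71.6 against 64.4 and 60.8 at 7 dpi. This total over the gene is not specific to the deleted exon.

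At 3 dpi all 10 GBP and IRG members were lower in Osr1cKO than in control FAPs. The summed level of the 10 genes was 1903 and 1392 TPM in the control libraries, against 927 and 349.7 in Osr1cKO. Mean levels in Osr1cKO were between 27.6% (Gbp6) and 45.2% (Irgm2) of control. Both Osr1cKO libraries were below both control libraries for 10 of 10 members, as for 18.1% of all genes tested (18.3% had them above). Log2 fold changes lay between -2.17 (Tgtp2) and -1.24 (Gbp7), with a median of -1.56, against a median of 0.0070 over all genes tested. All 10 passed the rule for this day, a fold change above 1.2 at an unadjusted p under 0.05. Of all 15699 genes, 3.89% passed it in the lower direction and 2.38% in the higher. None passed an adjusted p under 0.1 (limma, Benjamini-Hochberg), where the members' values lay between 0.772 and 0.784, and 0 of all genes did. In bulk libraries, fewer cells with the transcript and less RNA per cell cannot be told apart.

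**Figure D2:**
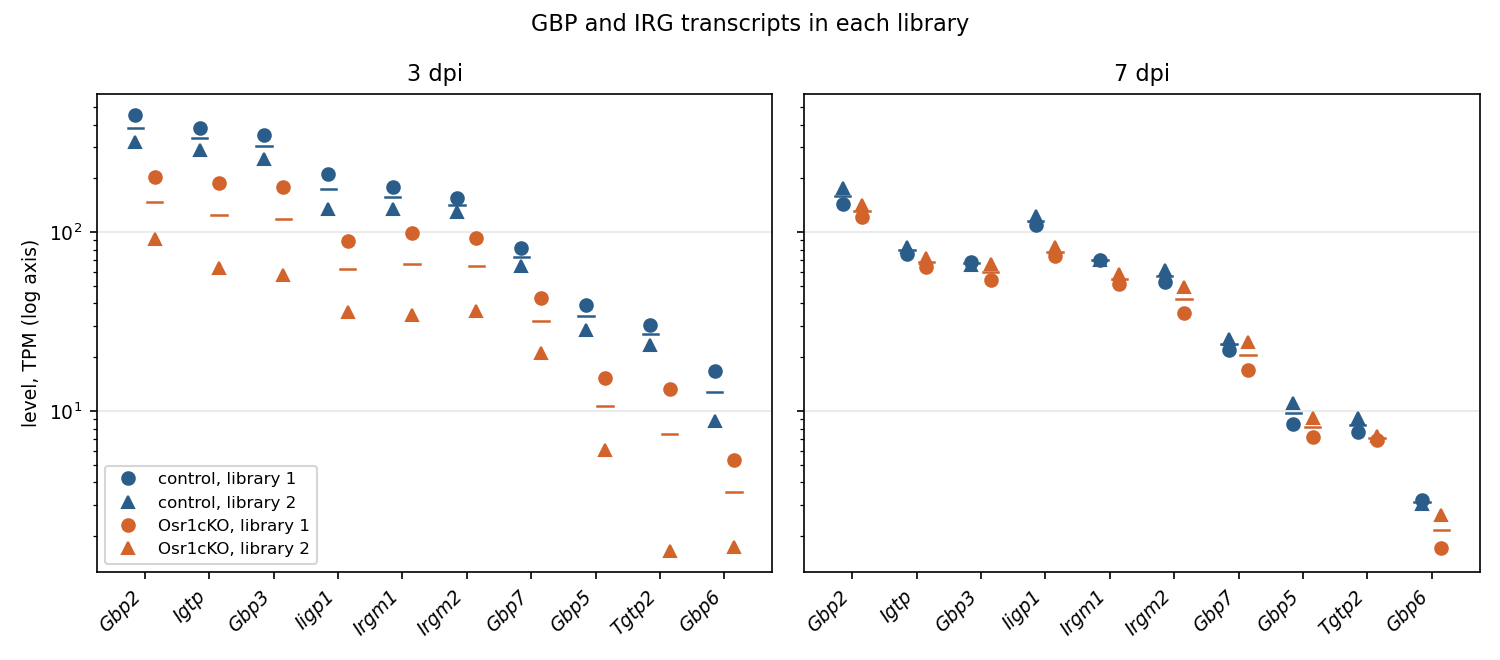
Level of each member in TPM (log axis) in every library, at 3 dpi (left) and 7 dpi (right). Circles and triangles are libraries 1 and 2, blue is control, orange is Osr1cKO and the short lines are group means. At 3 dpi both Osr1cKO libraries sit below both control libraries for all 10 genes, and at 7 dpi the genotypes lie close together.

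Gbp2, a prenylated GBP that targets parasite vacuoles, was the most abundant member, at 451 and 319.5 TPM in control, against 203 and 91.9 in Osr1cKO at 3 dpi. Both Osr1cKO libraries were below both control libraries, and library 2 was the lower one in each genotype. The log2 fold change was -1.47 ± 0.42 (SE, n = 2 per genotype; limma, adjusted p = 0.772). Gbp3 stood at 351 and 258 TPM in control, against 179 and 57.5 in Osr1cKO, and the genotypes did not overlap. Its log2 fold change was -1.56 ± 0.55 (SE). Gbp5, which promotes assembly of the NLRP3 inflammasome, stood at 39.5 and 28.5 TPM in control, against 15.3 and 6.06 in Osr1cKO, again without overlap. Its log2 fold change of -1.69 ± 0.44 (SE) had the smallest unadjusted p of the 10 genes (limma, adjusted p = 0.772). Gbp7 stood at 81.5 and 64.7 TPM in control, against 42.9 and 21.2 in Osr1cKO, and its log2 fold change of -1.24 ± 0.36 (SE) was the smallest of the members. Gbp6, the least abundant member, stood at 16.8 and 8.86 TPM in control, against 5.32 and 1.74 in Osr1cKO. Here the control libraries differed from each other by more than the nearest libraries of the genotypes did. Its log2 fold change was -1.67 ± 0.50 (SE). Summed with Gbp10 and Gm43302, which share its sequence, it gave 19.0 and 9.995 TPM in control, against 6.06 and 1.82 in Osr1cKO, which is the same order of libraries. Gm43302 was at 0 TPM in every library, so the sum adds Gbp10 alone. It does not settle which gene the fragments came from.

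Among the effector IRGs, Iigp1, a GTPase that loads onto parasite vacuoles, stood at 213 and 135 TPM in control, against 89.0 and 35.8 in Osr1cKO. The groups did not overlap, but here too the control libraries differed from each other by more than the nearest libraries of the genotypes. The log2 fold change was -1.57 ± 0.48 (SE). Tgtp2 stood at 30.5 and 23.6 TPM in control, against 13.3 and 1.66 in Osr1cKO. Its Osr1cKO libraries were 7.99-fold apart, the widest gap of any member, and the lower value rests on 64 fragments. The log2 fold change was -2.17 ± 0.80 (SE). Tgtp2 summed with Tgtp1 and Gm12185, which share its sequence, gave 36.9 and 27.7 TPM in control, against 15.8 and 2.24 in Osr1cKO.

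The regulatory IRGs were lower as well. Igtp stood at 384 and 289 TPM in control, against 188 and 62.9 in Osr1cKO, with a log2 fold change of -1.61 ± 0.53 (SE). Irgm1 stood at 179.9 and 136 TPM in control, against 99.01 and 34.4 in Osr1cKO (log2 fold change -1.40 ± 0.51, SE). Irgm2 stood at 156 and 130.0 TPM in control, against 92.4 and 36.5 in Osr1cKO (log2 fold change -1.28 ± 0.45, SE). All 3 were without overlap between genotypes and lowest in Osr1cKO library 2. Because Igtp and Irgm2 overlap in exons, their sum is given as well, 539.8 and 419 TPM in control against 280.3 and 99.5 TPM in Osr1cKO.

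The 4 libraries of 3 dpi fell in the same order for every member, from control 1 over control 2 and Osr1cKO 1 to Osr1cKO 2. Of all genes tested, 8.34% had this order. Osr1cKO library 2, the lowest for every member, also had the lowest sum of macrophage markers at 3 dpi, and the part of these in the result was not tested. The Osr1cKO libraries were 2.02-fold (Gbp7) to 7.99-fold (Tgtp2) apart and the control libraries 1.196-fold (Irgm2) to 1.89-fold (Gbp6). For 10 of 10 members the gap between the Osr1cKO libraries was wider than that between the nearest libraries of the genotypes. The share of all genes was not computed for this count. The calls depended on single libraries and on the filter. Without a filter on low values 4 members passed (Gbp2, Gbp5, Gbp6 and Gbp7). Of all 29366 genes in that fit, 637 were lower and 564 higher. Fits that left 1 library in a group are given here by effect size only. Their counts of calls are listed further below, only to show how calls depend on the processing. The median log2 fold change of the members was -1.25 without control library 1 and -1.79 without control library 2. It was -2.26 without Osr1cKO library 1 and -0.84 without Osr1cKO library 2.

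**Figure D3:**
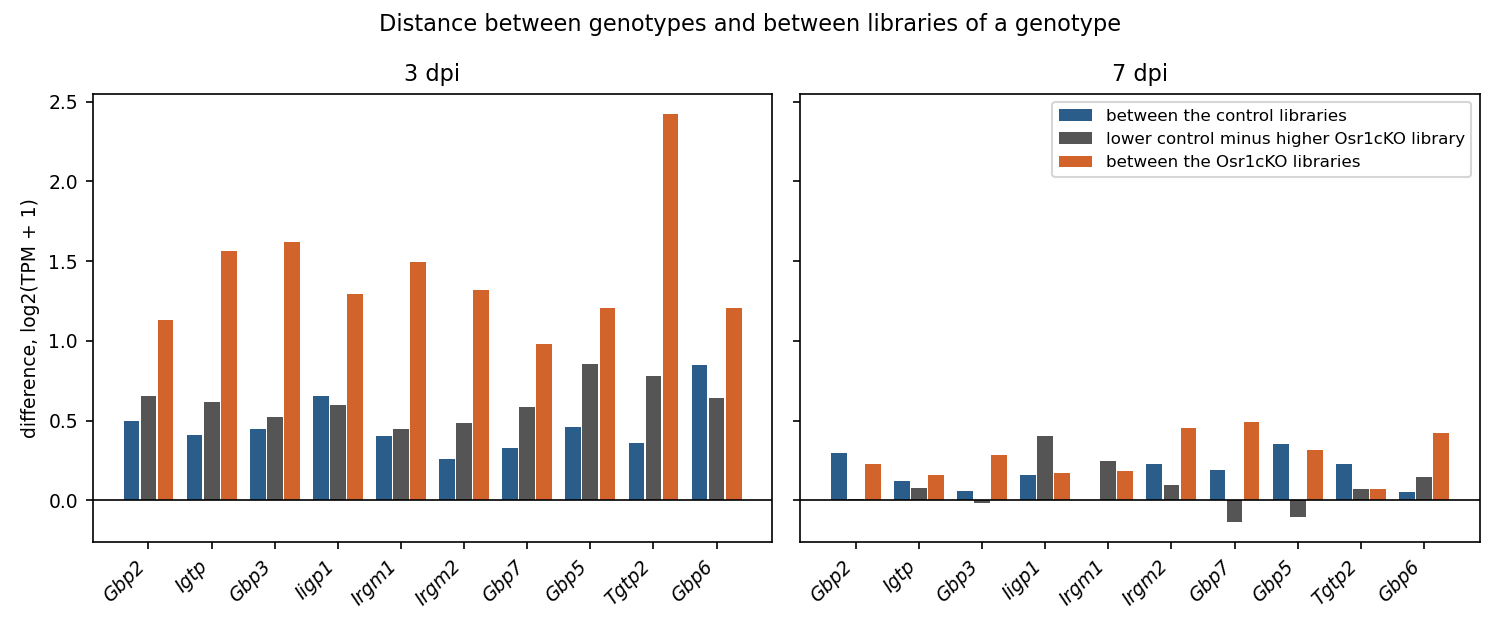
Differences in log2(TPM + 1) for each member at 3 dpi (left) and 7 dpi (right): between the control libraries (blue), between the Osr1cKO libraries (orange), and from the higher Osr1cKO to the lower control library (grey, negative where the genotypes overlap). At 3 dpi the orange bar is higher than the grey one for all 10 genes, and at 7 dpi grey is below 0 for Gbp3, Gbp5 and Gbp7.

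In control at 3 dpi the levels of the members, which TPM gives per length, fell into steps. Gbp2, Igtp and Gbp3 had means of 385 ± 93.0, 337 ± 67.5 and 304 ± 65.9 TPM (SD, n = 2), with ranges that overlapped from one to the next. Iigp1, Irgm1 and Irgm2 followed at 174 ± 55.1, 158 ± 31.4 and 143 ± 18.0 TPM (SD, n = 2), again overlapping. Gbp7 stood apart at 73.1 ± 11.9 TPM (SD, n = 2). Gbp5 and Tgtp2 overlapped at 34.0 ± 7.78 and 27.02 ± 4.88 TPM (SD, n = 2), and Gbp6 was lowest at 12.8 ± 5.59 TPM (SD, n = 2). In Osr1cKO at 3 dpi the order was the same except that Irgm1 (66.7 ± 45.7 TPM, SD, n = 2) and Irgm2 (64.5 ± 39.5 TPM) preceded Iigp1 (62.4 ± 37.7 TPM), a difference far within the spread of the libraries.

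At 7 dpi the log2 fold changes of the members were closer to 0 than at 3 dpi, and that of Iigp1 was the largest. The summed level was 561 and 628 TPM in control, against 433 and 515 in Osr1cKO. Log2 fold changes lay between -0.70 (Iigp1) and -0.28 (Gbp3), with a median of -0.38, against 0.0046 over all 16578 genes tested. At the rule for this day, an adjusted p under 0.1 with a fold change over 1.2, 0 of 10 members were called (limma, Benjamini-Hochberg), as were 0.0483% of all genes in the lower direction and 0.0181% in the higher. With limma-voom on the recovered fragments 2 members were called, Iigp1 and Irgm1. That fit called more genes in all, 114 of 16358 lower and 74 higher. At the rule of 3 dpi, an unadjusted p under 0.05 with the same fold threshold, 7 of 10 were lower, against 5.91% of all genes (5.21% were higher), the exceptions being Gbp5, Gbp7 and Tgtp2. With TPM left as deposited, without scaling between libraries, the median of the members was -0.25 while that of all genes was 0.11.

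Iigp1 stood at 110.0 and 123 TPM in control, against 73.3 and 82.8 in Osr1cKO at 7 dpi. The gap between the nearest libraries of the genotypes was wider than the gap within either genotype. Its log2 fold change was -0.70 ± 0.086 (SE, n = 2 per genotype; limma, adjusted p = 0.149). Over 14 alternative settings it lay between -0.77 and -0.57, with adjusted p between 0.0291 and 0.793. Tgtp2 stood at 7.67 and 9.16 TPM in control, against 6.87 and 7.26 in Osr1cKO (log2 fold change -0.34 ± 0.14, SE), a difference that passed neither rule.

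For the regulatory IRGs, Irgm1 was at 69.6 TPM in both control libraries and at 51.4 and 58.6 TPM in Osr1cKO, with a log2 fold change of -0.47 ± 0.079 (SE; limma, adjusted p = 0.222). Irgm2 was at 52.6 and 61.9 TPM in control, against 35.6 and 49.2 in Osr1cKO (-0.57 ± 0.15, SE; limma, adjusted p = 0.306). Igtp was at 75.8 and 82.4 TPM in control, against 64.3 and 71.8 in Osr1cKO (-0.35 ± 0.080, SE; limma, adjusted p = 0.271). All 3 were without overlap between genotypes.

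Among the GBPs, Gbp2 was at 143 and 177 TPM in control, against 122 and 142 in Osr1cKO, so that the nearest libraries almost met. Gbp6 was at 3.18 and 3.03 TPM in control, against 1.71 and 2.64 in Osr1cKO, without overlap. Gbp3 was at 68.4 and 65.5 TPM in control, against 54.3 and 66.4 in Osr1cKO. The groups overlapped for Gbp3 and likewise for Gbp5 (8.48 and 11.1 TPM against 7.19 and 9.21) and for Gbp7 (22.1 and 25.4 TPM against 17.0 and 24.4). In all, 7 of 10 members had both Osr1cKO libraries below both controls, against 22.8% of all genes (23% had them above). Osr1cKO library 2 was higher than library 1 for 10 of 10 members at this day, a count without a computed share of all genes.

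**Figure D4:**
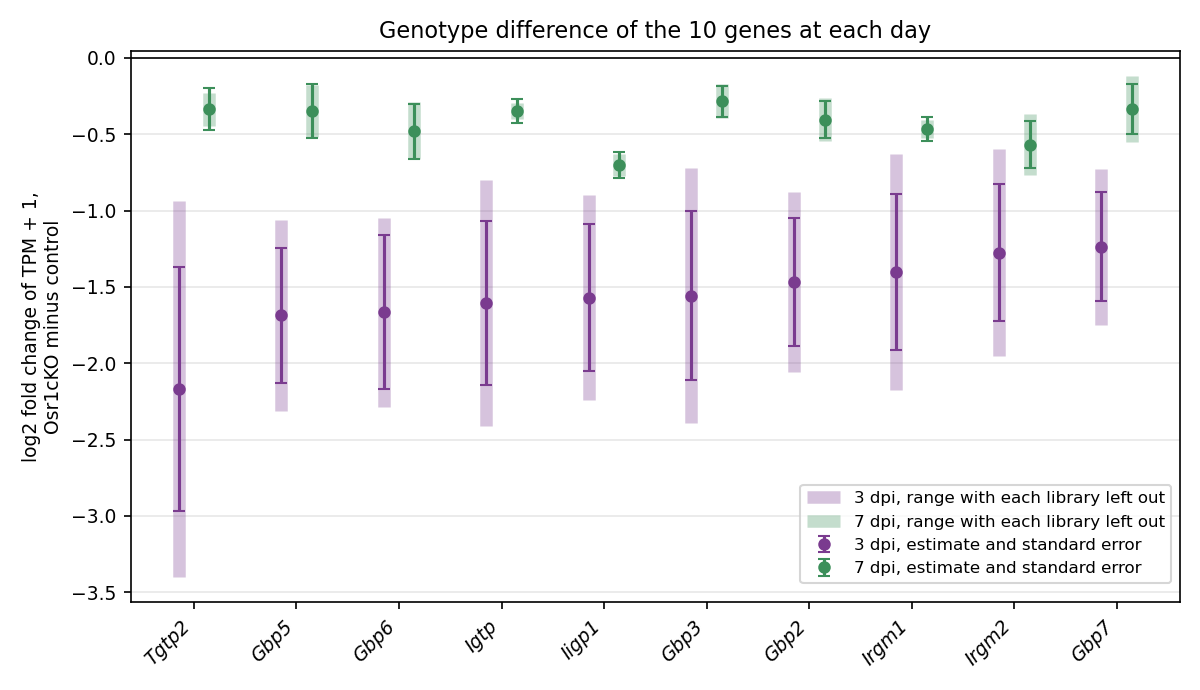
Log2 fold change of TPM + 1 between Osr1cKO and control for each member at 3 dpi (purple) and 7 dpi (green). Points and error bars are the limma estimate with its standard error, and pale bars span the estimates when single libraries were left out. The 3 dpi estimates lie between -2.17 and -1.24 and the 7 dpi estimates between -0.70 and -0.28.

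Whether the genotype difference itself changed between the days was tested as an interaction over all 8 libraries. The log2 difference was closer to 0 at 7 dpi for 10 of 10 members, by 0.70 (Irgm2) to 1.82 (Tgtp2), with a median of 1.11. At an adjusted p under 0.05, 0 of 10 were called (limma, Benjamini-Hochberg, adjusted p between 0.724 and 0.911), and 0 of 17371 genes were. With limma-voom, 0 members were called as well, and 0 of 17144 genes. Gbp5 alone had an unadjusted p under 0.05 (interaction 1.33 ± 0.53, SE; limma, adjusted p = 0.724), against 3.62% of genes in that direction and 3.15% in the other. The median interaction was 1.73 without Osr1cKO library 1 of 3 dpi and 0.44 without Osr1cKO library 2 of 3 dpi.

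Within control FAPs, the members were lower at 7 dpi than at 3 dpi. For 10 of 10 genes both libraries of 7 dpi were below both of 3 dpi, as for 36.7% of all genes. Mean levels were 1.496-fold (Iigp1) to 4.54-fold (Gbp3) higher at 3 dpi. At an adjusted p under 0.05, 7 of 10 were lower (limma, Benjamini-Hochberg), against 24.1% of all genes (21.3% were higher). The log2 change was largest for Gbp3 (-2.07 ± 0.46, SE; limma, adjusted p = 0.00956) and Igtp (-1.98 ± 0.44, SE; limma, adjusted p = 0.00955). Iigp1 (-0.46 ± 0.39, SE; limma, adjusted p = 0.362), Irgm1 (-1.08 ± 0.42, SE; limma, adjusted p = 0.0721) and Tgtp2 (-1.50 ± 0.66, SE; limma, adjusted p = 0.105) were not called. The count called changed with the library left out. The median log2 change of the members then lay between -1.64 and -1.30.

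Iigp1 ranked second at 7 dpi (116 ± 9.12 TPM in control, SD, n = 2), above Igtp (79.1 ± 4.64) and Gbp3 (67.0 ± 2.05), and the libraries of these genes did not overlap. Gbp2 remained first at 160.0 ± 23.5 TPM (SD, n = 2). Of the neighbours in the control order at 7 dpi, Gbp5 (9.80 ± 1.86 TPM, SD, n = 2) and Tgtp2 (8.42 ± 1.05 TPM, SD, n = 2) alone overlapped.

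Within Osr1cKO FAPs, 0 of 10 members were called between the days (limma, Benjamini-Hochberg, adjusted p between 0.157 and 0.805), 0 had an unadjusted p under 0.05, and limma-voom called 0. Of all genes, 21.9% were called lower and 18.2% higher. Log2 changes from 3 to 7 dpi lay between -0.81 (Gbp3) and 0.39 (Iigp1), with a median of -0.37. For 0 of 10 members were both libraries of 7 dpi below both of 3 dpi, as they were for 37.6% of all genes. For 6 of 10 members they lay between the libraries of 3 dpi, for which no share of all genes was computed. The result turned on which library of 3 dpi was kept. Without Osr1cKO library 1 of 3 dpi the median was 0.24, and without Osr1cKO library 2 of 3 dpi it was -0.999.

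Other genes of the pathway were read from lists written with earlier results of these data known. Among interferon ligands, Ifnb1, the interferon-β gene, was at 15.6 and 10.9 TPM in control, against 4.43 and 1.02 in Osr1cKO at 3 dpi. Ifna4 was at 5.87 and 4.34 TPM against 1.83 and 0.408. Both passed the rule for 3 dpi, with log2 fold changes of -2.09 ± 0.52 and -1.60 ± 0.38 (SE), and both were below 0.7 TPM in all 4 libraries of 7 dpi, where they were too low to be tested. Ifng, the type II interferon made by T and NK cells, was at 0 in 6 libraries and no higher than 0.140 TPM in the others, and Ifnl2 was at 0 in all 8.

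None of the 4 receptor genes passed the rule at either day (limma), also at an unadjusted p under 0.05. Ifngr1 was at 174 and 116 TPM in control, against 95.3 and 108 in Osr1cKO at 3 dpi (log2 fold change -0.48 ± 0.22, SE), Ifngr2 at 48.3 and 69.5 TPM against 66.2 and 46.7 (-0.06 ± 0.26). Ifnar1 was at 45.2 and 55.2 TPM in control, against 59.2 and 64.5 in Osr1cKO (0.30 ± 0.15, SE), Ifnar2 at 84.5 and 72.2 TPM against 71.3 and 74.3 (-0.10 ± 0.13). At 7 dpi the 4 receptors had log2 fold changes between -0.13 (Ifngr1) and 0.03 (Ifnar1).

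Of 9 signal transduction genes, 2 were lower at 3 dpi and 0 higher, with a median log2 fold change of -0.67. They were Stat2, the STAT of type I interferon signalling, at 210.1 and 123 TPM in control, against 98.6 and 35.6 in Osr1cKO, and Batf2 at 8.15 and 5.95 TPM against 2.51 and 0.636. Irf1, a transcription factor of the GBP and IRG promoters, was at 133.9 and 86.3 TPM against 80.7 and 50.9 (log2 fold change -0.74 ± 0.31, SE) and was not called. At 7 dpi 0 of 9 were called at an adjusted p under 0.1, and 5 were lower at the rule of 3 dpi (limma). Among these, Irf1 was at 256 and 255 TPM in control, against 161 and 237 in Osr1cKO, without overlap.

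Of 6 feedback inhibitors, Usp18, which restrains type I interferon signalling, was lower at 3 dpi (303 and 244 TPM against 164 and 46.6) and the other 5, Socs1 and Socs3 included, were not called. At 7 dpi 0 of 6 were called at an adjusted p under 0.1, and 2 were lower at the rule of 3 dpi (limma). Socs3 was at 1378 and 1580 TPM in control, against 999 and 1144 in Osr1cKO (log2 fold change -0.60 ± 0.12, SE; limma, adjusted p = 0.247).

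Among 17 tested relatives of the members, 10 were lower at 3 dpi and 0 higher, with a median log2 fold change of -1.23. Gbp9 was at 45.1 and 30.01 TPM in control, against 16.5 and 6.05 in Osr1cKO. Mx1, an antiviral dynamin-like GTPase, was at 186 and 67.6 TPM against 30.6 and 7.00. Irgq, an IRG-like gene, had 14.4 and 19.8 TPM in control, against 19.7 and 17.9 in Osr1cKO and a log2 fold change of 0.14 ± 0.21 (SE), the highest of the list. At 7 dpi 0 of 13 relatives were called at an adjusted p under 0.1, and 4 were lower at the rule of 3 dpi (limma).

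Of 14 tested interferon-γ-inducible genes that are not GTPases, 8 were lower at 3 dpi and 0 higher, with a median of -1.12. Cxcl10, a chemokine for activated T cells, was at 1438 and 1264 TPM in control, against 573 and 206 in Osr1cKO. Nlrc5, an activator of MHC class I genes, was at 31.6 and 16.9 TPM against 8.84 and 2.20. Ly6a, which encodes the FAP surface marker Sca1, was at 5407 and 4232 TPM against 3058 and 2020 and passed the rule as well. Of 13 tested at 7 dpi, 2 were lower at an adjusted p under 0.1, and 4 were lower and 1 higher at the rule of 3 dpi. Cxcl9 was at 118 and 112 TPM in control, against 56.4 and 60.7 in Osr1cKO (log2 fold change -1.09 ± 0.074, SE; limma, adjusted p = 0.0941), and Fgl2 at 231 and 235 TPM against 133 and 149 (-0.85 ± 0.073, SE; limma, adjusted p = 0.0941). The higher one was Nos2, the inducible nitric oxide synthase, at 6.52 and 2.31 TPM in control, against 15.1 and 9.54 in Osr1cKO (log2 fold change 1.27 ± 0.44, SE; limma, adjusted p = 0.352).

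Of 19 GBP and IRG partners at vacuoles and in inflammasomes tested at 3 dpi, 4 were lower and 0 higher, with a median of -0.14. The 4 were inflammasome genes, namely Casp4 (61.6 and 32.5 TPM against 14.9 and 16.9), Il18 (37.7 and 34.1 against 21.4 and 19.3), Casp1 (7.17 and 5.89 against 3.60 and 3.02) and Gsdmd (88.6 and 74.2 against 60.0 and 38.9). The autophagy genes that direct both GTPase families to vacuoles were not called. Atg3, for example, was at 53.8 and 57.3 TPM in control, against 55.2 and 51.9 in Osr1cKO, and Atg5 at 32.8 and 43.7 TPM against 47.9 and 41.5. At 7 dpi 0 of 19 partners were called at an adjusted p under 0.1, and 2 were lower at the rule of 3 dpi (limma).

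**Figure D5:**
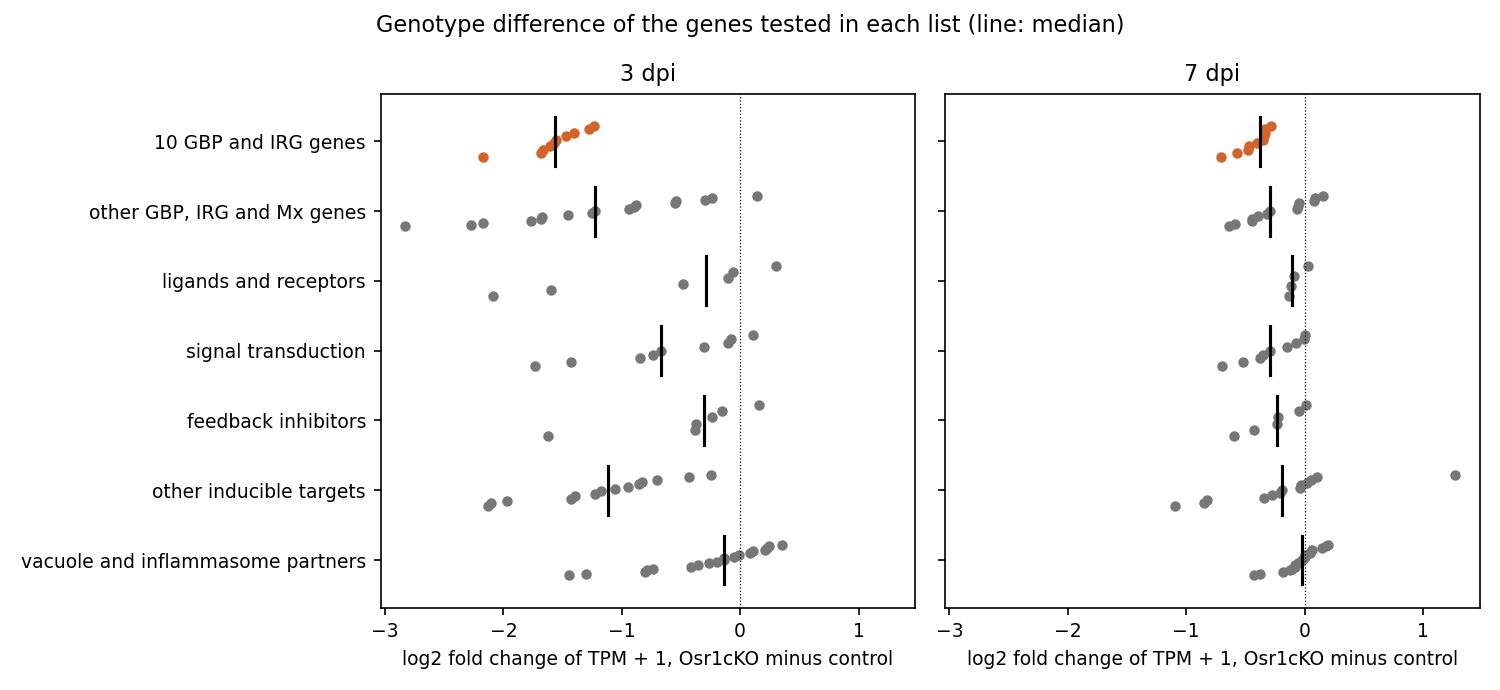
Log2 fold change of TPM + 1 between Osr1cKO and control for every tested gene of each list, at 3 dpi (left) and 7 dpi (right). Each point is a gene, orange for the 10 members, and black lines are list medians. The medians at 3 dpi are -1.56 for the members, -1.23 for their relatives, -1.12 for other inducible targets and -0.14 for the partners.

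The members also varied together over the 8 libraries. Between pairs of members, Pearson's r of log2(TPM + 1) ranged from 0.691 (Gbp3 with Iigp1) to 0.997 (Gbp3 with Igtp), with a median of 0.964 over 45 pairs. These points share libraries and a common day and genotype structure, and r is given as a description. Among 10368 other genes with a mean of at least 5 TPM, 124 had an r over 0.9 with the members' mean profile. The highest were Ifit1 (0.998), Slfn8 (0.997), Parp14 (0.993), Herc6 (0.990), Trim21 (0.990), 4930599N23Rik (0.986), Dtx3l (0.985) and Ifi47 (0.984), the last itself an IRG.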

How the data were processed

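The authors aligned stranded paired-end reads of polyadenylated RNA to mm10 with STAR, normalized fragment counts with DESeq2 and deposited TPM per gene symbol, 1 table per library. The counter, its annotation and its use of strand are not given in the sources used here, nor is it settled which day ran on which of the sequencers named. Of 55385 entries, 109 repeats of 106 symbols were left out. With GENCODE exon lengths (53281 symbols matched, 1995 did not), 98.7% to 98.9% of the values below 50 fragments came within 0.02 of whole fragments, which gave the depth. Genes of few fragments carry the most counting error.

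Libraries were scaled to each other with a mean of log ratios trimmed by 30%, and TPM was tested as log2(TPM + 1), which understates changes of low genes, with limma (lmFit, eBayes with trend) on all genes with at least 10 fragments in 2 libraries and 15 over the libraries fitted. The study's own test was on counts. Each day was fitted on its 4 libraries, and the interaction and day comparisons on all 8. Call rules for each day follow the study's methods, and those over 8 libraries used an adjusted p under 0.05. P-values rest on 2 libraries against 2. Beside all 10 members, the genes named were at most 4 per list and day of smallest p, every ligand and receptor, Osr1 and the 8 genes of highest r. Irgq, Ly6a, Atg3, Atg5, the near-identical or overlapping genes and the marker genes were named outside this rule after their values were seen. Members and lists were chosen with earlier results of these data known. Other pseudocounts, scalings and filters, limma-voom, robust eBayes, a replicate block, 1 fit of all 8 libraries and leaving out each library were tried. The fits were also run on simulated data with the same spread in every library. That simulation does not cover the wide gaps between the Osr1cKO libraries of 3 dpi. Fits used limma 3.58.1 in R 4.3.3, and tables were made in Python 3.11.15 with NumPy 2.4.6 and pandas 2.3.3. Proteins were not analysed here. Listed genes that are not named, among them 1 that the rule would name, are given by counts and medians.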

Additional observations from a re-analysis of the deposited data

How the results depend on the processing

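The direction of all 10 members held under every alternative run at 3 and at 7 dpi. Their calls did not. At 3 dpi 4 members passed without a filter on low values and 0 at the rule of 7 dpi, and leaving out single libraries gave 0 to 10, at medians of -2.26 to -0.84. At 7 dpi 2 passed with limma-voom, 7 at the rule of 3 dpi and 0 to 1 with single libraries left out, at medians of -0.51 to -0.31. For the interaction these ranges were 0 to 1 members and medians of 0.44 to 1.73. For control between the days they were 3 to 9 members and -1.64 to -1.30, and for Osr1cKO between the days 0 to 7 members and -0.999 to 0.24, the sign turning without Osr1cKO library 1 of 3 dpi. Where 1 library was left, it was assumed to vary like the other group. Counts from such fits are therefore a description of the processing and not a test result. Depth limits Tgtp2 and Gbp6 most. The cause of these changes was not tested.

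Replicate numbers are shared between genotypes, but no source says that a number marks a shared mouse or day. Deviations of same-numbered libraries correlated at -0.128 at 3 dpi and 0.0611 at 7 dpi over all genes. With the replicate number as a block, 10 members passed at 3 dpi, where 617 genes were lower and 294 higher. At 7 dpi 1 passed, Iigp1, where 14 genes were lower and 13 higher. With the numbers crossed at 3 dpi, an alternative chosen after seeing the data, 10 passed. There 708 genes were lower and 486 higher.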
